A study of Mus musculus with 18 samples.

Results

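The genes described here are 33 transporters, receptors and enzymes known from the kidney proximal tubule, read in fibroblasts before and after transplantation under the kidney capsule. They were taken by name from a list of tubule transporters and metabolic genes that was drawn up with their levels in these libraries known. All 33 were found among the 38924 genes of the deposited table, and all 33 were among the 16577 genes with enough counts to be tested. Their levels in transplanted against cultured cells are therefore given as a description, without a p-value. Counts of them called there appear only where the dependence on the processing is described, and are no test.

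Heart (HF), kidney (KF) and tail (TF) fibroblasts were isolated from male *ROSA mT/mG* donors (C57BL/6 background, 10 weeks of age), whose cells carry membrane TdTomato, and had been expanded in culture. On gelatin foam, the cells were put beneath the renal capsule of C57BL6/J recipients of 10 to 11 weeks, which were syngeneic with the donors. The methods state male mice for all experiments, with this strain among them, and do not give the recipients' sex separately. After 3 days, live CD45−;TdTomato+ cells were sorted, and gave the transplanted groups HFs, KFs and TFs. Leftover cells of the same origin were replated for 3 days and gave the cultured groups HFc, KFc and TFc. The methods refer to an earlier description that includes sorting CD90+;CD45−;CD31− cells, and it is not clear from them whether these cells were sorted before culture or the cultured groups after it. Each group had 3 libraries. The reporter marks all donor cell types and the cultured groups carry it too, and the gate after transplantation used TdTomato and CD45 with no fibroblast or tubule marker named.

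The proximal tubule is the part of the nephron that takes back most of the filtered glucose, phosphate, amino acids, bicarbonate and protein, and that secretes organic anions. Its cells carry megalin and cubilin on their apical surface, run on fatty acids and make glucose. Transcription factors such as HNF4 are known to drive many of its genes, and in mice several of them are expressed at different levels in males and females. Fibroblasts are not known to make most of these proteins.

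Library totals lay between 17927838 and 32245168 counts. Levels are given as CPM, the usual scaling of counts to library size, with edgeR's TMM factors, and a gene was taken as detectable above 3 counts in a library. The fibroblast markers *Col1a1*, *Col1a2*, *Col3a1*, *Pdgfra*, *Pdgfrb*, *Dcn*, *Lum* and *Thy1* together had 12300 to 16000 CPM in culture and 17800 to 123000 CPM after transplantation, the lowest of these in KFs replicate 3. The library labelled KFs replicate 3 also stood apart by its sex-linked genes. It had 1490 CPM of *Xist* against at most 0.404 CPM in the other 8 transplanted libraries. It had no count of *Ddx3y*, *Eif2s3y* and *Kdm5d*, and 18 counts of *Uty* against 717 to 1178 in those 8. The donors are stated to be all male, and the library's name lacks the replicate code that the others carry, so its label is in doubt for every KFs value below. Same-group libraries differed by more than sampling noise in every pair, with a chi-square per degree of freedom of 11.5 to 258 between transplanted and 4.74 to 7.65 between cultured replicates.

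The sequence before a RefSeq transcription start is shown for 3 of the genes that went together from near 0 in culture to clear levels after transplantation. All 3 are among the genes whose window holds the letters GTTAAT, so these shared letters do not describe the genes not shown. Genes that moved alike but lack these letters, such as *Kap*, are not shown. The windows are the 250 bases before the RefSeq start on GRCm38.p6, 5′ to 3′, and lie outside the exons annotated in GENCODE M21. The *Slc34a1* start lies inside the gene as GENCODE annotates it, so that its window is intronic there, whereas the windows of *Slc22a6* and *Acsm2* lie before the annotated gene. Capitals mark the motif GTTAAT or its reverse complement.
Slc34a1, chr13:55399398-55399647, + strand: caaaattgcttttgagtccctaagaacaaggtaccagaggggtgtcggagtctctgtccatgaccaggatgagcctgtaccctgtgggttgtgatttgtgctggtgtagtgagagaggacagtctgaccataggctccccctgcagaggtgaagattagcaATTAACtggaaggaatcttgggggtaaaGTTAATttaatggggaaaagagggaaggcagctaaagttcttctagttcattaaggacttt
Slc22a6, chr19:8617746-8617995, + strand: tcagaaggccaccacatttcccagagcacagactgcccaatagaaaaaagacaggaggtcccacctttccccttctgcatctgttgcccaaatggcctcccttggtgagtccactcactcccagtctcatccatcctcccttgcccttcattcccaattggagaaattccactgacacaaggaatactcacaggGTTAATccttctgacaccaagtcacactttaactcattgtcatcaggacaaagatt
Acsm2, chr7:119554090-119554339, + strand: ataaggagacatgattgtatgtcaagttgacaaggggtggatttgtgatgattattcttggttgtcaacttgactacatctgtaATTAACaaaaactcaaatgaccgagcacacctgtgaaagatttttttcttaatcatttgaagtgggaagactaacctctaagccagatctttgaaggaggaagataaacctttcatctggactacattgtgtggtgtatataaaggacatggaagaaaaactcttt

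The motif began 89 and 61 bases before the start in *Slc34a1*, 56 bases before it in *Slc22a6* and 166 bases before it in *Acsm2*. RefSeq windows of this kind were found for 25 of the 33 genes. GTTAAT, searched on both strands, was present for 8 of the 25 (32%), namely *Acsm2*, *Hao2*, *Miox*, *Pck1*, *Slc22a6*, *Slc22a8*, *Slc34a1* and *Slc7a7*, and for 7.49% of all 27025 genes with a window. TATAAA was present for 7 of the 25 (28%) and 14.3% of all genes, and CAAAGTCCA, a form of the HNF4 site, for 1 (4%, *Slc3a1*) and 0.451%. *Acsm2* and *Miox* held both GTTAAT and TATAAA. The 25 genes had 34 windows in all, and a match describes the letters and not a bound site.

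In culture, 14 of the 33 genes were at or under 3 counts in all 9 libraries, and 5 of these had no count at all. They were *Kap*, *Slc27a2*, *Pck1*, *Slc22a6*, *Slc22a8*, *Slc22a30*, *Slc5a12*, *Slc6a19*, *Miox*, *Acsm2*, *Fbp1*, *Cyp4a14*, *Keg1* and *Hao2*. Summed over the 14, the level was 0.0698 to 0.199 CPM in cultured libraries and 31.1 to 935 CPM in transplanted ones, so the ranges did not come near each other. After transplantation, 30 of the 33 genes were above 3 counts in all 9 libraries. For 24 of the 33, every transplanted library was above every cultured library, which was the case for 6.67% of all genes tested.

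**Figure D1:**
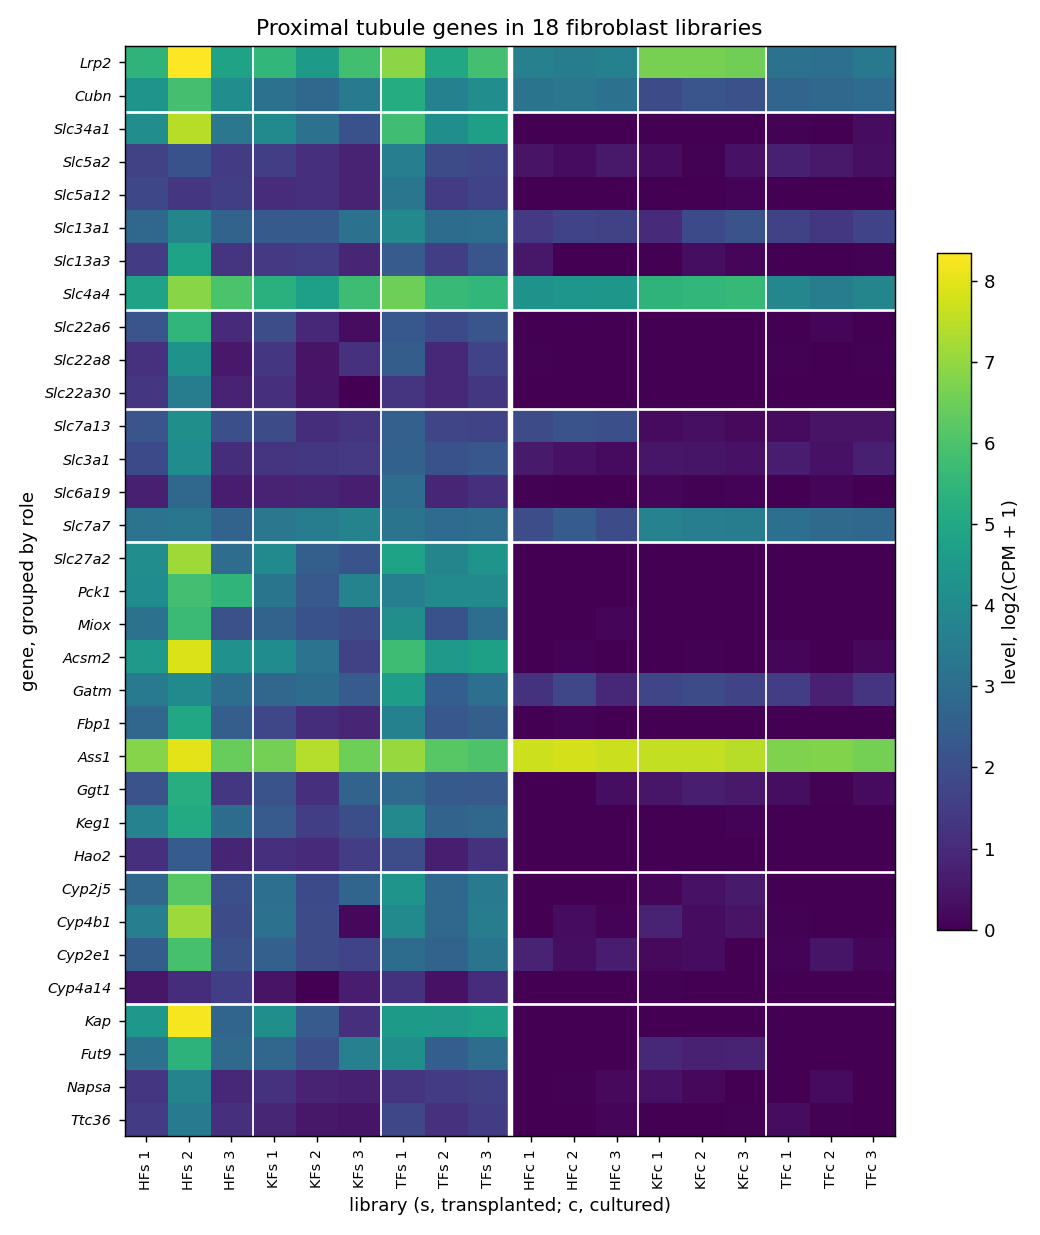
Level of the 33 proximal tubule genes (rows, grouped by role) in the 9 transplanted (left of the thick line) and 9 cultured libraries (right), as log2(CPM + 1) on the colour scale. Most rows are dark in culture and lighter in the transplanted libraries, HFs replicate 2 is the lightest column, and *Lrp2*, *Cubn*, *Slc4a4*, *Slc7a7* and *Ass1* are visible on both sides.

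Both endocytic receptors were present in all cultured libraries. *Lrp2* encodes megalin, the receptor that takes up filtered proteins, and lies on chromosome 2 from 69424340 to 69586065 (GRCm38). It had 42.4, 324 and 26.7 CPM in HFs replicates 1 to 3, 45.1, 22.6 and 55.2 CPM in KFs and 119, 30.8 and 57.2 CPM in TFs. The corresponding values were 11.5, 10.7 and 11.7 CPM in HFc, 99.1, 98.3 and 92 CPM in KFc and 7.89, 7.29 and 9.29 CPM in TFc. Every HFs and TFs library was thus above its cultured counterparts, whereas every KFs library was below every KFc library. *Cubn* encodes cubilin, which binds its ligands together with megalin. It had 16 to 58.1 CPM in HFs, 6.05 to 9.74 in KFs and 11.8 to 35.2 in TFs, against 7.56 to 8.96, 2.72 to 3.56 and 5.67 to 6.57 in the cultured groups, without overlap in any organ.

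Among sodium-coupled and anion transporters, *Slc34a1* (chromosome 13 from 55398187 to 55415592), the main phosphate cotransporter of the tubule, had 16.2, 174 and 8.8 CPM in HFs, 14.8, 7.66 and 3.33 CPM in KFs and 54.2, 17 and 25.6 CPM in TFs. It had no count in HFc or KFc and at most 0.219 CPM in TFc. The HFs mean of *Slc34a1* was at least 555-fold and the KFs mean at least 81.4-fold higher than 3 counts per cultured library. Without HFs replicate 2 the bound was 105-fold in heart fibroblasts, and without KFs replicate 1 it was 52.1-fold in kidney fibroblasts. The apical glucose cotransporter *Slc5a2* and the lactate cotransporter *Slc5a12*, both of the early tubule, followed another order. *Slc5a2* had 2.04, 3.3 and 1.75 CPM in HFs, 1.9, 1.25 and 0.721 CPM in KFs and 10.9, 2.82 and 2.46 CPM in TFs. *Slc5a12* had 2.52, 1.5 and 1.9 CPM in HFs, 1.09, 1.19 and 0.761 CPM in KFs and 8.72, 1.82 and 2.2 CPM in TFs. For both, TFs replicate 1 was the highest library, and HFs replicate 2 lay within the range of the others. In culture *Slc5a2* had 0.0349 to 0.653 CPM, and *Slc5a12* had counts in 1 library, at 0.0664 CPM.

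The sulfate cotransporter *Slc13a1* was detected in every cultured library at 1.04 to 3.35 CPM and had 4.1 to 14.2 CPM after transplantation. *Slc13a3*, which carries dicarboxylates, had at most 0.437 CPM in culture and 0.841 to 27.4 CPM after transplantation. *Slc4a4*, the basolateral bicarbonate cotransporter, was higher in all HFs (27.3 to 115 CPM) than HFc libraries (18.5 to 20.4 CPM) and in all TFs (44.7 to 90.4 CPM) than TFc libraries (10.5 to 13.6 CPM). In kidney fibroblasts its ranges overlapped, at 25.2 to 52.6 CPM after transplantation and 41.8 to 47.5 CPM in culture.

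The organic anion transporters take drugs and metabolites from the blood into the tubule cell. *Slc22a6* had 3.61, 43.6 and 1.06 CPM in HFs, 2.95, 0.961 and 0.2 CPM in KFs and 3.9, 2.63 and 3.6 CPM in TFs, and counts in 1 cultured library (0.0784 CPM). *Slc22a8* had 0.352 to 18.7 CPM after transplantation and at most 0.0438 CPM in culture. *Slc22a30* was at 0 in all cultured libraries and in KFs replicate 3, and had 0.384 to 10.5 CPM in the other 8 transplanted libraries. *Slc22a30*, *Cyp2j5* and *Cyp4a14* belong to families of similar genes, among which RSEM divides shared reads by estimate, so their exact levels are uncertain.

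Of the amino acid transporters, *Slc6a19*, which takes up neutral amino acids at the apical membrane, had 0.607 to 6.9 CPM after transplantation, the highest in TFs replicate 1, and at most 0.118 CPM in culture. *Slc3a1*, a subunit of the cystine transporter, had 1.14 to 15.7 CPM after transplantation against 0.196 to 0.657 CPM in culture. *Slc7a13*, an acidic amino acid and cystine transporter of the late tubule, had 3.55, 16.7 and 3.07 CPM in HFs and 2.8, 3.42 and 3.09 CPM in HFc, so that these groups overlapped. It had at most 0.353 CPM in the other 6 cultured libraries and had 1.15 to 4.92 CPM in KFs and TFs. *Slc7a7*, a subunit of the exporter of cationic amino acids, had 5.27 to 8.72 CPM in HFs against 2.85 to 4.36 CPM in HFc. Its levels overlapped in kidney fibroblasts (8.97 to 12.2 CPM after transplantation, 10.5 to 12 CPM in culture) and in tail fibroblasts (6.59 to 8.24 CPM and 5.96 to 7.27 CPM).

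Among metabolic enzymes, the gluconeogenic *Pck1* had 15.7, 57 and 42.7 CPM in HFs, 8.49, 4.07 and 12.3 CPM in KFs and 11.1, 14.5 and 14.4 CPM in TFs, and no count in any cultured library. Its mean was at least 322-fold, 78.4-fold and 119-fold above 3 counts per cultured library in heart, kidney and tail fibroblasts, and these bounds were 245, 59.5 and 114 at their lowest when any 1 transplanted library was left out. *Fbp1*, another gluconeogenic enzyme, had 0.841 to 30.7 CPM after transplantation. *Slc27a2*, which activates very long chain fatty acids, had no count in culture and 3.49 to 141 CPM after transplantation. *Acsm2*, which activates medium chain fatty acids, had 21.5, 240 and 17.8 CPM in HFs, 15.8, 8.07 and 2.12 CPM in KFs and 53.1, 21.3 and 25.5 CPM in TFs. *Miox*, the inositol oxygenase, had 2.84 to 50.7 CPM, *Keg1* had 1.92 to 33.5 CPM and the peroxisomal oxidase *Hao2* had 0.636 to 4.41 CPM.

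*Gatm*, the first enzyme of creatine synthesis, was detected in all 18 libraries, at 0.706 to 2.86 CPM in culture and 4.29 to 24.6 CPM after transplantation. *Ggt1*, which degrades glutathione, had at most 0.628 CPM in culture and 1.25 to 35.4 CPM after transplantation. *Ass1*, an enzyme of arginine synthesis that many cells make, did not follow the others. It had 113, 256 and 83.3 CPM in HFs, 95.2, 171 and 89.3 CPM in KFs and 133, 72 and 63.8 CPM in TFs. The cultured values were 210, 223 and 203 CPM in HFc, 188, 189 and 174 CPM in KFc and 105, 107 and 96.8 CPM in TFc. Every KFs library was below every KFc library, and the ranges overlapped in heart and tail fibroblasts. Per kilobase of exon, *Ass1* had the highest median level of the 33 genes in transplanted libraries (39.5 CPM per kb), followed by *Kap* (29.5 CPM per kb), with *Slc4a4* next at 4.61 CPM per kb.

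The cytochromes P450 oxidize drugs and fatty acids. *Cyp2j5* had 2.66 to 71.5 CPM after transplantation, and in culture it had counts in KFc libraries only (0.112 to 0.531 CPM). *Cyp2e1* had 2.2 to 58.9 CPM after transplantation and at most 0.728 CPM in culture. *Cyp4b1* had 10.9, 138 and 2.81 CPM in HFs, 7.64, 2.82 and 0.12 CPM in KFs and 14.5, 6.09 and 10.3 CPM in TFs, and at most 0.745 CPM in culture, so that KFs replicate 3 lay within the cultured range. *Cyp4a14* stayed low, at 0 to 1.9 CPM after transplantation.

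*Kap* encodes an androgen-regulated protein of the tubule and lies on chromosome 6 from 133849851 to 133853762. It had 20.9, 296 and 5.62 CPM in HFs, 16.7, 4.29 and 1.2 CPM in KFs and 22.4, 21.8 and 25 CPM in TFs, and no count in any cultured library. Its mean was at least 901-fold, 70.2-fold and 205-fold above 3 counts per cultured library in heart, kidney and tail fibroblasts. Without HFs replicate 2 the bound of *Kap* was 111-fold in heart fibroblasts, below that of tail fibroblasts, and without KFs replicate 1 it was 26-fold in kidney fibroblasts. *Fut9*, a fucosyltransferase that makes the Lewis X sugar, had 3.14 to 40.8 CPM after transplantation and was present in culture only in KFc, at 0.698 to 0.895 CPM. *Napsa*, an aspartic protease, had 0.681 to 12.2 CPM and *Ttc36* 0.401 to 10 CPM after transplantation, against at most 0.335 and 0.208 CPM in culture.

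Within organs, every HFs library was above every HFc library for 31 of the 33 genes (33.3% of all genes), every KFs library above every KFc library for 26 (26.2%) and every TFs library above every TFc library for 31 (29.3%). With group means set to no less than 3 counts per library, the median log2 ratio of the 33 was 5.35, 3.08 and 4.73 in heart, kidney and tail fibroblasts, beside 0.03, 0.08 and 0 for all genes. These counts and medians follow from how the genes were chosen. Because these are bulk samples, a smaller number of cells of a type and less RNA per cell cannot be told apart.

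The 33 genes varied widely among transplanted libraries of 1 organ. HFs replicate 2 had the highest level for 26 of the 33 genes among the 9 transplanted libraries, as it had for 10.4% of all genes tested. Its levels were 0.807 to 20.1 times the median of the other 8, with a median ratio of 7.32 over the 33 genes and 0.984 over all genes, and 22 genes were more than 5 times higher. The ratio was 20.1 for *Cyp4b1*, 15.8 for *Kap*, 15.6 for *Slc22a6* and 14.7 for *Slc22a8*, but 1.68 for *Slc5a2*, 1.07 for *Slc7a7* and 0.807 for *Slc5a12*.

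TFs replicate 1 was highest for 5 of the 33 genes (6.52% of all genes), which were *Slc5a2*, *Slc5a12*, *Slc13a1*, *Slc6a19* and *Gatm*. Its ratios had a median of 2.38, beside 1.02 over all genes. They were 8.62 for *Slc6a19*, 5.54 for *Slc5a2*, 5.26 for *Slc5a12* and 3.55 for *Gatm*, but 1.19 for *Kap* and 1.4 for *Slc22a6*. *Slc5a2* and *Slc5a12* were thus highest in a library other than the one that was highest for *Kap*, *Cyp4b1* and the organic anion transporters. *Slc34a1*, *Lrp2* and *Cubn* were highest in HFs replicate 2 as well. The ratio of *Slc34a1* was 11.2 there and 3.5 in TFs replicate 1. Whether these libraries differ by part of the tubule was not tested. KFs replicate 3 was lowest for 16 of the 33 genes (19.5% of all genes) and KFs replicate 2 for 12 (19.9% of all genes). The ratios in KFs replicate 3 ran from 0 for *Slc22a30*, 0.0134 for *Cyp4b1*, 0.0564 for *Kap*, 0.0611 for *Slc22a6* and 0.0993 for *Acsm2* to 1.68 for *Fut9*, with a median of 0.485, beside 1.02 over all genes.

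**Figure D2:**
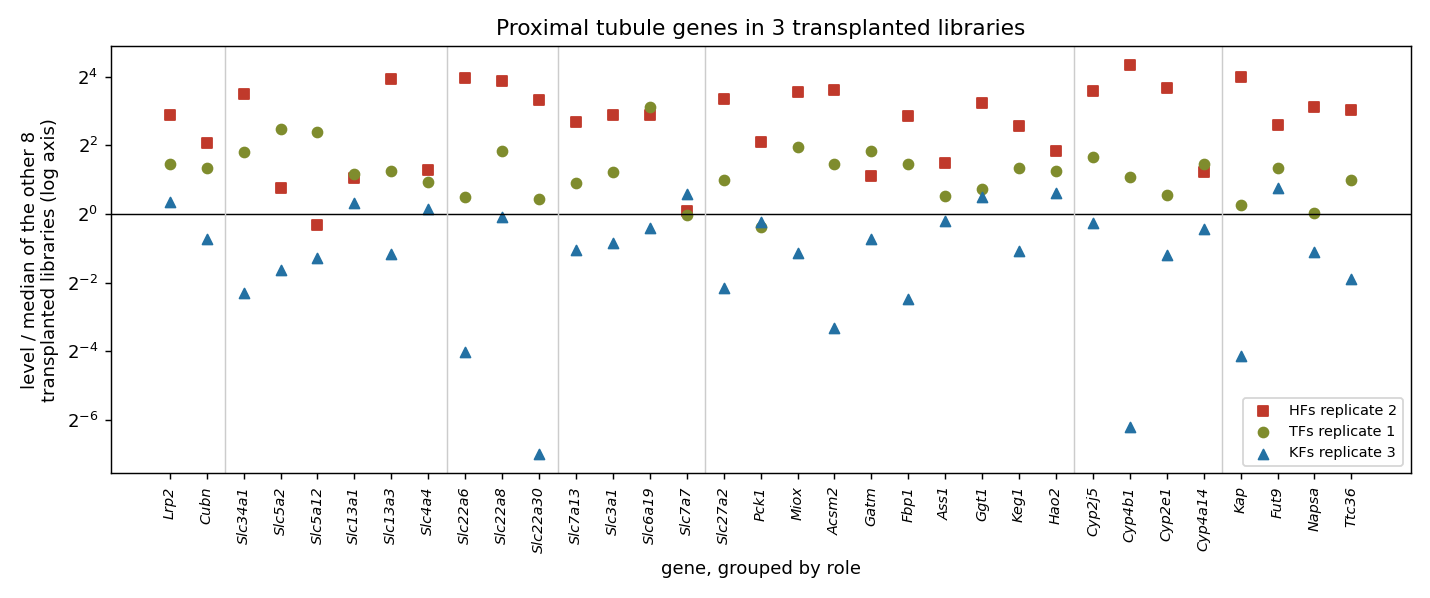
Level of each of the 33 genes in HFs replicate 2 (squares), TFs replicate 1 (circles) and KFs replicate 3 (triangles), divided by the median of the other 8 transplanted libraries, on a log axis where 1 is the black line. Squares lie above 1 for 32 of 33 genes and triangles below 1 for 26 of 33, and *Slc22a30* in KFs replicate 3, at 0, is drawn at the bottom of the axis.

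Genes known to be higher in male mouse kidney were read beside these. The list holds *Kap*, *Cyp2e1*, *Cyp4b1* and *Slc7a13*, which are among the 33, and *Acsm3*, *Slco1a1* and *Cyp2j13*. Its summed level was 573 CPM in HFs replicate 2, 7.73 CPM in KFs replicate 3, the library with *Xist*, and 14.8 to 56.4 CPM in the other 7 transplanted libraries. *Acsm3* was at 0 in KFs replicate 3 and at 0.673 to 22.4 CPM in the other 8. The 3 genes of the female list were low in all libraries, at 2.52 to 5.68 CPM together after transplantation and 0.373 to 1.69 CPM in culture, of which *Prlr* made up most and *Slc7a12* was at or near 0. The part of sex in the levels of the 33 genes was not tested, and with 1 such library it cannot be told apart from that library's other differences.

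The differences between transplanted groups were tested with edgeR's quasi-likelihood test on all 18 libraries, with Benjamini-Hochberg adjustment over 16577 genes. The 33 genes were not chosen by these contrasts, but their levels in the same libraries were known. The study names *Kap*, *Slc27a2*, *Pck1*, *Cyp2j5* and *Fut9* among the most upregulated genes shared by transplanted heart and tail fibroblasts. Comparisons of KFs with HFs or TFs therefore cannot be taken as independent of the choice of genes. Between HFs and KFs, 13 of the 33 were higher in HFs and 0 lower, where 14.2% of all genes were higher and 19% lower in HFs. These were *Cubn* and *Pck1*, the transporters *Slc34a1*, *Slc13a3*, *Slc22a6*, *Slc3a1* and *Slc7a13*, the enzymes *Acsm2*, *Fbp1*, *Keg1*, *Cyp2e1* and *Cyp4b1*, and *Ttc36*. The log2 fold change was 1.98 for *Cubn* (SE 0.44, edgeR adjusted p = 0.00284), 2.22 for *Pck1* (SE 0.49, adjusted p = 0.00705) and 3.42 for *Acsm2* (SE 0.86, adjusted p = 0.00666). For all 33 its median was 2.22, beside -0.04 for all genes. At an unadjusted p below 0.05 (edgeR), 23 were higher in HFs and 1, *Slc7a7*, was lower.

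This count rested on HFs replicate 2. Without it, the median log2 fold change of the 33 was 0.54, and 2 genes were higher in HFs, *Cubn* with a log2 fold change of 1.17 and *Pck1* with 1.86, and *Slc7a7* was lower (-0.66). Without KFs replicate 2, 6 were higher, and without HFs replicate 1 or HFs replicate 3, 21 were. In a fit of only the 6 HFs and KFs libraries, edgeR called 0 of the 33, with 14 at an unadjusted p below 0.05, whereas DESeq2 on all libraries called 12 higher and *Slc7a7* lower. Without both HFs replicate 2 and KFs replicate 3, a choice made after their levels were seen, *Cubn* and *Pck1* were higher.

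Between HFs and TFs, *Pck1* was the 1 gene of the 33 called, higher in HFs with a log2 fold change of 1.53 (SE 0.48, edgeR adjusted p = 0.0461), where 23.1% of all genes were called and 10.3% were higher. The lowest HFs library had 15.7 CPM and the highest TFs library 14.5 CPM, so the groups did not overlap but were close, and the call of *Pck1* was lost without HFs replicate 2 or 3 and without any single TFs library (edgeR adjusted p from 0.101 to 0.155). Without HFs replicate 3, *Cyp4b1*, *Slc7a13* and *Ass1* were called higher in HFs instead. The median log2 fold change of the 33 was 1.04 in HFs against TFs and -0.65 without HFs replicate 2, so that its sign rested on that library. Between KFs and TFs, 3 were lower in KFs and 0 higher, where 13.8% of all genes were lower and 15.3% higher. *Cubn* had a log2 fold change of -1.42 (SE 0.43, edgeR adjusted p = 0.0224), *Slc5a2* one of -2.06 (SE 0.63, adjusted p = 0.0219) and *Slc5a12* one of -2.06 (SE 0.66, adjusted p = 0.036). Without TFs replicate 1 these were -0.82, -1.03 and -0.99, and none of them was called, while *Slc7a7* was, higher in KFs by 0.65. Over all 33 genes the median log2 fold change in KFs against TFs was -1.28, and 31 were negative, beside 0.03 for all genes. It lay between -1.50 and -0.87 when any 1 KFs or TFs library was left out, the latter without TFs replicate 1. Without KFs replicate 2 none of the 33 was called in KFs against TFs, with 4 at an unadjusted p below 0.05 (edgeR), and DESeq2 on all libraries called 5 (*Slc7a7* higher, and *Cubn*, *Slc5a2*, *Slc5a12* and *Fbp1* lower). Without KFs replicate 1, 5 were called too (*Slc7a7* higher, and *Cubn*, *Slc5a2*, *Acsm2* and *Fbp1* lower), and without both HFs replicate 2 and KFs replicate 3, 8 were lower.

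In culture, where replicates lay close together, 7 of the 33 genes differed between organs. *Lrp2* was higher in KFc than in TFc, with 96.5 ± 3.9 CPM (SD, n = 3, as for the CPM that follow) against 8.16 ± 1.03 and a log2 fold change of 3.57 (SE 0.76, edgeR adjusted p = 0.00178). It was also higher in KFc than in HFc (11.3 ± 0.538 CPM), with a log2 fold change of HFc against KFc of -3.09 (SE 0.74, edgeR adjusted p = 0.00498). *Slc4a4* had the same order, with 44.8 ± 2.87 CPM in KFc, 12.3 ± 1.6 in TFc and 19.5 ± 0.933 in HFc. Its log2 fold change was 1.87 in KFc against TFc (SE 0.4, edgeR adjusted p = 0.00187) and -1.20 in HFc against KFc (SE 0.39, adjusted p = 0.03).

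*Slc7a7* differed in all 3 comparisons, with 11.2 ± 0.779 CPM in KFc, 6.51 ± 0.676 in TFc and 3.38 ± 0.857 in HFc. The log2 fold changes were 0.78 in KFc against TFc (edgeR adjusted p = 0.00733), -0.94 in HFc against TFc (adjusted p = 0.00186) and -1.72 in HFc against KFc (adjusted p = 1.59e-05). *Slc7a7* is also known from macrophages, and the 8 leukocyte markers summed to 207 to 236 CPM in KFc, 65.8 to 71 CPM in TFc and 47 to 56.2 CPM in HFc. Their part in the level of *Slc7a7* was not tested. *Fut9* had 0.796 ± 0.0984 CPM in KFc and no count in HFc or TFc. It was at least 7.09-fold above 3 counts per library of TFc and 6.67-fold above that of HFc (edgeR adjusted p = 0.014 and 0.0183).

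*Slc7a13* was highest in heart fibroblasts in culture, with 3.1 ± 0.307 CPM in HFc, 0.211 ± 0.0603 in KFc and 0.294 ± 0.1 in TFc. Its log2 fold change was 3.41 in HFc against TFc (SE 0.66, edgeR adjusted p = 0.000614) and 3.85 in HFc against KFc (SE 0.68, adjusted p = 0.000474). *Cubn* was higher in HFc (8.26 ± 0.701 CPM) than in KFc (3.17 ± 0.421 CPM), with a log2 fold change of 1.38 (SE 0.45, edgeR adjusted p = 0.0302), opposite to *Lrp2*. *Ass1* was higher in HFc (212 ± 10.5 CPM) than in TFc (103 ± 5.26 CPM), with a log2 fold change of 1.04 (SE 0.35, edgeR adjusted p = 0.0256). This call of *Ass1* was lost without any single library of HFc or TFc other than HFc replicate 3 (edgeR adjusted p from 0.0536 to 0.0796), with log2 fold changes of 0.98 to 1.06.

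In all, 3 of the 33 genes were called in HFc against TFc, 4 in KFc against TFc and 6 in HFc against KFc, where 41.9%, 36.4% and 29.2% of all genes were called. In HFc against KFc, 2 were higher and 4 lower in HFc, where 15.1% and 14% of all genes were. The 14 genes at or under 3 counts in all cultured libraries passed the filter through the transplanted ones and could hardly be called here. The shares of the 33 and of all genes are therefore not comparable. Leaving out any single library of HFc or KFc ended the calls of *Cubn* and *Slc4a4* in HFc against KFc (adjusted p from 0.0523 to 0.0973 and from 0.054 to 0.0873), with log2 fold changes of 1.28 to 1.47 and -1.25 to -1.15. Without HFc replicate 1 or HFc replicate 2, *Lrp2*, *Slc7a7* and *Slc7a13* were the 3 left. The fit estimated 1 spread per gene over all 18 libraries, so p-values between cultured groups also carry the spread among transplanted libraries. Without HFs replicate 2 and KFs replicate 3, neither of them cultured, 9 were called in HFc against KFc. Fits of only the 2 groups, which kept 11 and 10 of the 33 genes, called 6 in HFc against TFc and 8 in KFc against TFc. The segment markers *Slc34a1*, *Slc22a6*, *Kap* and *Miox* were at or near 0 in every cultured group while *Lrp2* had 92 to 99.1 CPM in KFc.

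**Figure D3:**
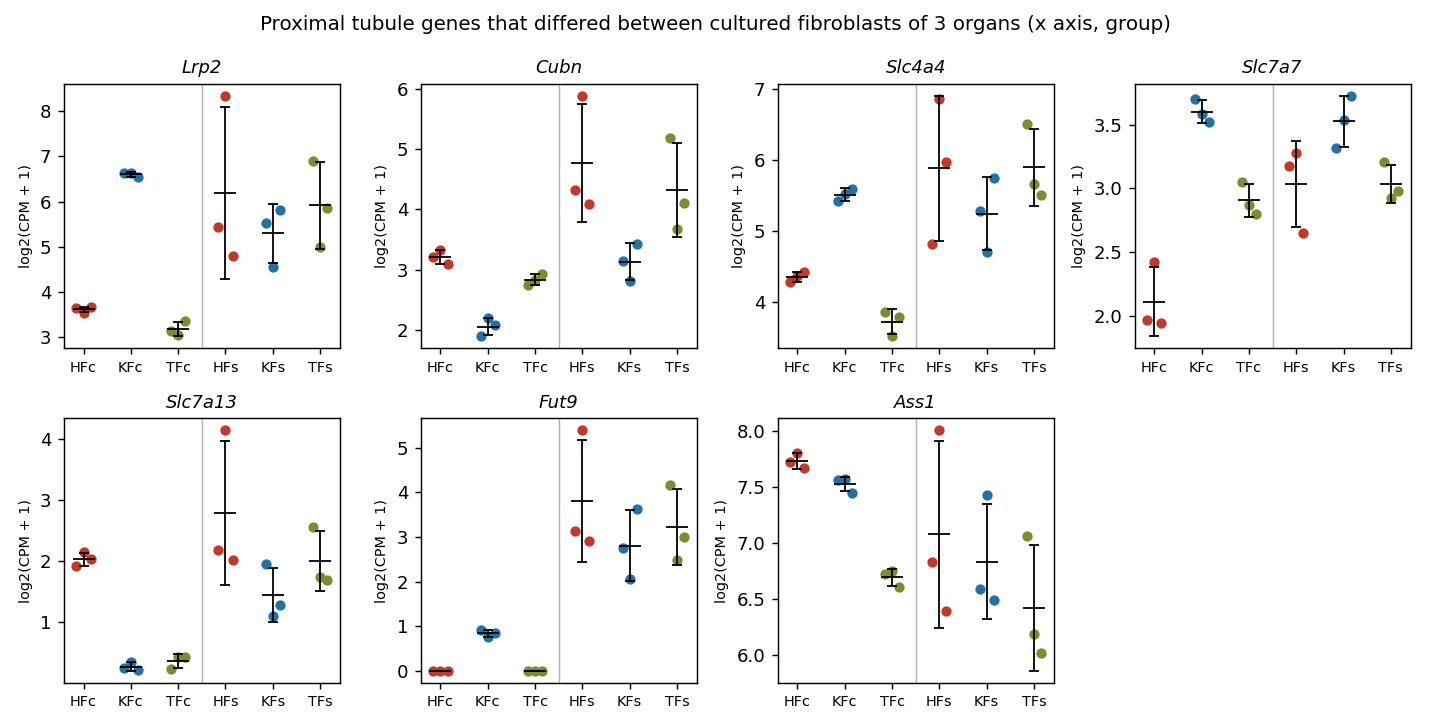
Level of the 7 proximal tubule genes that differed between cultured fibroblasts, as log2(CPM + 1), in the cultured (left of the grey line) and transplanted groups (right). Points are libraries, and bars give the mean and SD of 3 libraries on that scale. *Lrp2*, *Slc4a4* and *Slc7a7* are highest in KFc among cultured groups, and *Slc7a13* and *Ass1* are highest in HFc.

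A list of 42 other proximal tubule genes, which did not include any of the 33, was read for the same contrasts, and 36 of them had enough counts to be tested. *Slc34a3*, *Slc22a7*, *Slc22a13*, *Slc6a13*, *Dpys* and *Mep1b* were too low. The list was also chosen with earlier results of these data known, and genes with counts in transplanted cells alone passed the filter through them. The p-values given below for genes of this list do not allow for that choice. Of the 36, 34 were higher in HFs than HFc, 16 were higher and 1 lower in KFs than KFc, and 29 were higher in TFs than TFc, where 18.3%, 14.7% and 11% of all genes were higher and 7.99% lower in KFs. In heart and tail fibroblasts 0 were lower by edgeR, also at an unadjusted p below 0.05, and 0 by DESeq2, where 9.33% and 5.53% of all genes were lower. With group means set to no less than 3 counts per library, the median log2 ratio of these 36 was 3.92, 1.54 and 2.71, beside 0.03, 0.08 and 0 for all genes. Summed over all 42, the level was 225 to 844 CPM in HFs, 73.6 to 138 CPM in KFs and 177 to 303 CPM in TFs, against 54.1 to 57.2, 68.7 to 78 and 57.6 to 64.8 CPM in HFc, KFc and TFc, so the kidney groups overlapped.

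*Dpep1*, a brush border dipeptidase, had 57.1, 85.1 and 118 CPM in HFs, 27.2, 9.74 and 0.881 CPM in KFs and 29.3 to 36.5 CPM in TFs, against 5.28 to 9.77 CPM in culture. It was higher in HFs by a log2 fold change of 3.74 (SE 0.67, edgeR adjusted p = 0.000224) and in TFs by 1.84 (SE 0.63, adjusted p = 0.0299), and the value in KFs was 0.85 (SE 0.63, adjusted p = 0.276). *Acy3*, an aminoacylase, was higher in HFs by 2.51 (SE 0.5, edgeR adjusted p = 0.000535) and in TFs by 1.53 (SE 0.5, adjusted p = 0.0252), with -0.14 in KFs (SE 0.49, adjusted p = 0.836). *Pter* had 8.39 to 19.1 CPM in all 18 libraries and passed both thresholds in none of the 3 contrasts.

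The transcription factor *Hnf4a*, named here after its values were seen, was on the same list. It had 5.39 to 33.1 CPM in HFs, 3.25 to 4.49 CPM in KFs and 4.68 to 14.2 CPM in TFs. In culture it had no count in HFc, 0 to 0.0698 CPM in KFc and 0.831 to 2.12 CPM in TFc. The gene lower in KFs, *Slc7a8*, an amino acid exchanger also named after its values were seen, had 1.6 to 6.42 CPM in KFs and 17.8 to 22.1 CPM in KFc, a log2 fold change of -2.33 (SE 0.39, edgeR adjusted p = 0.000155). It was higher in HFs than HFc by 2.02 (SE 0.41, adjusted p = 0.000621).

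**Figure D4:**
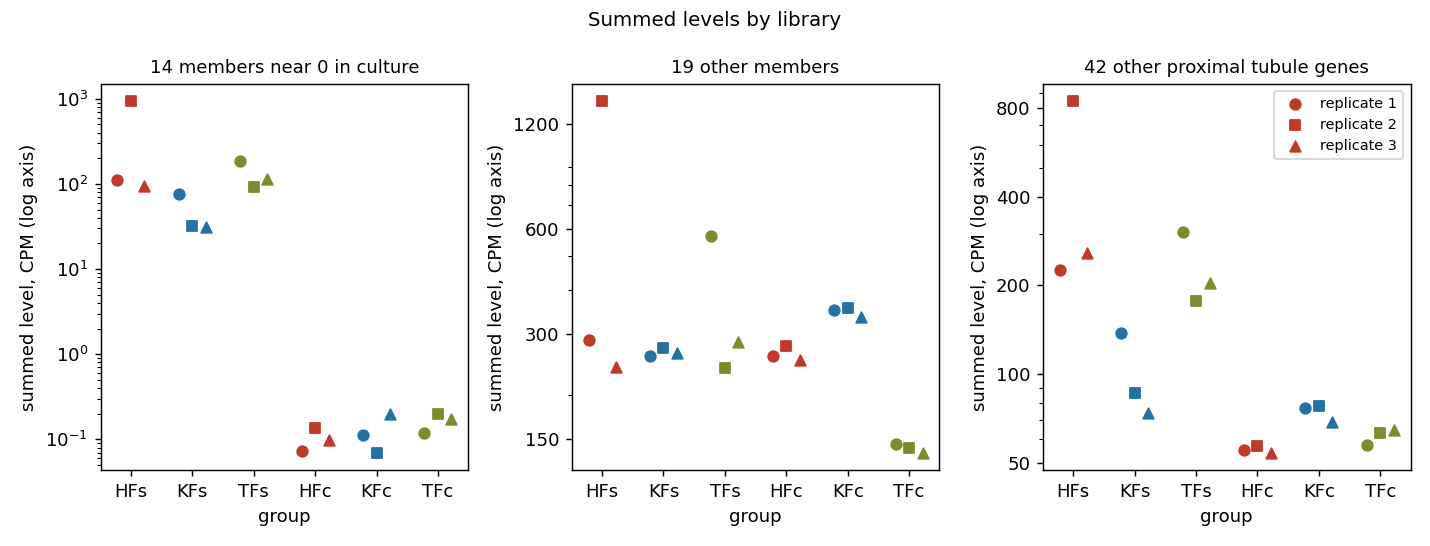
Summed level (CPM, log axis) in each library of the 14 genes at or under 3 counts in culture, of the 19 other genes of the 33, and of the 42 other proximal tubule genes. In the left panel transplanted libraries lie between 31.1 and 935 CPM and cultured ones at or below 0.199 CPM, and HFs replicate 2 (red square) is the highest point of every panel.

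Markers of other kidney and blood cells were read beside these, with the same edgeR thresholds. Of all genes, 18.3%, 14.7% and 11% were higher in HFs, KFs and TFs than in their cultured groups, and 9.33%, 7.99% and 5.53% were lower. All marker counts below stand beside these shares. Markers without a count in culture passed the filter through transplanted libraries alone and could only be called higher. Of 6 loop and distal tubule markers with enough counts, 5 were higher in HFs than HFc, 6 in KFs than KFc and 5 in TFs than TFc. The 8 loop and distal tubule markers summed to 19.6 to 139 CPM in transplanted and 1.89 to 8.42 CPM in cultured libraries, with the 2 highest values in HFs replicate 2 (139 CPM) and TFs replicate 1 (121 CPM). *Umod* had no count in culture and 2.56 to 34.1 CPM after transplantation, and *Egf* had 0.628 to 1.27 and 4.97 to 49.2 CPM. *Slc12a1* had at most 0.332 CPM in culture and 2.02 to 39 CPM after transplantation, and *Trpm6* was highest in KFs replicate 3 (44 CPM). *Cldn16* was at or near 0 throughout. The 8 collecting duct markers, such as *Aqp2* and *Aqp3*, summed to 1.04 to 23.6 CPM after transplantation and at most 0.465 CPM in culture, and were highest in HFs replicate 3 (23.6 CPM). Of 7 tested, 6 were higher in HFs, 1 in KFs and 3 in TFs.

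The 5 erythroid genes had no count in culture and summed to 38.3 and 42.5 CPM in HFs replicates 1 and 3, to 0.132 and 0.12 CPM in HFs replicate 2 and KFs replicate 3 and to 2.63 to 8.52 CPM in the others, so that they were near 0 in the library with the highest tubule levels. All 5 were higher in HFs and in TFs, and 1 in KFs, but they passed the filter through transplanted libraries alone. The 8 endothelial markers summed to 48.9 to 107 CPM after transplantation and 24.9 to 65.3 CPM in culture, and 6, 6 and 5 of the 8 were higher in HFs, KFs and TFs. The 8 leukocyte markers summed to 42.8 to 75.1 CPM in HFs, 10.1 to 57.8 CPM in KFs and 17.5 to 20 CPM in TFs. Of 7 tested, 5 were lower in KFs than KFc and 5 in TFs than TFc, where 7.99% and 5.53% of all genes were lower. In HFs 0 were called, also at an unadjusted p below 0.05 (edgeR). The sort after transplantation kept CD45− cells, and *Ptprc*, the gene of CD45, is on this list. These leukocyte counts are therefore not independent of the sort. Of the podocyte markers, *Nphs1* had 0.769 to 2.16 CPM after transplantation, and the list's sum (187 to 593 CPM after transplantation, 146 to 852 CPM in culture) was nearly all *Synpo*. Of 4 podocyte markers tested, 1, 2 and 1 were higher in HFs, KFs and TFs. Genes of injured tubule (*Havcr1*, *Lcn2*, *Krt20*, *Vcam1*, *Sox9*, *Clu* and *Spp1*) summed to 1170 to 9620 CPM after transplantation, the highest in KFs replicate 3, and to 471 to 1850 CPM in culture. Of the 7, 4 were higher in HFs, 5 were higher and 1 lower in KFs, and 2 were higher and 2 lower in TFs. Most of the sum in KFs and TFs was *Spp1*, with 1280, 3690 and 8280 CPM in KFs and 2000 to 2150 CPM in TFs. Named after their values were seen, *Krt20* had 2.37 to 6.09 CPM in KFs and 13.6 to 18.4 CPM in KFc, and *Sox9* had 171 to 216 CPM in HFs and 328 to 349 CPM in HFc. In the other direction, the means of *Lcn2*, *Clu* and *Vcam1* were higher after transplantation in each organ. They were 245, 120 and 535 CPM in HFs and 0.579, 7.46 and 132 CPM in HFc. *Havcr1*, which injured proximal tubule cells make, had 26.3, 30.7 and 628 CPM in KFs replicates 1 to 3, 68.4 to 94.2 CPM in KFc and at most 0.148 CPM in the other 12 libraries. The part of host kidney cells or of their RNA in the levels of the 33 genes was not tested.

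Outside all lists, the genes whose log2(CPM + 1) over the 9 transplanted libraries was most like the mean of the 33 were searched among 10767 genes with a mean of 5 CPM or more. Pearson's r was 0.989 for *Ugt3a2*, 0.983 for *Sord* and *Abcc2*, 0.978 for *Pecr* and *Fxyd2*, 0.971 for *Ugt2b38* and 0.969 for *Kl*. These 7 genes were all highest in HFs replicate 2, which all values of r share. *Kl* encodes klotho, *Fxyd2* a regulatory subunit of the sodium pump and *Sord* sorbitol dehydrogenase. *Ugt3a2* and *Ugt2b38* were at or under 3 counts in all 9 cultured libraries, whereas *Sord*, *Pecr* and *Fxyd2* were above 3 counts in each of them.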

How the data were processed

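RNA of 18 libraries, 3 in each of 6 groups assigned from the sample titles, was measured by single-end sequencing of 75 bases from stranded total RNA libraries. According to the study's methods, the authors filtered and trimmed reads for quality and ran RSEM, with Bowtie2 as its aligner, on GRCm38. The submitters' processing notes name mm9, Bowtie and RSEM. The authors deposited estimated counts per gene (RSEM expected counts), not normalized, as whole numbers, and the annotation release is not given in the sources used here. Ensembl identifiers were matched to GENCODE M21, which held 37607 of 38924. The members and all gene lists were chosen with earlier results of these data known.

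Counts were tested in R 4.3.3 with edgeR 4.0.16 (filterByExpr, TMM, glmQLFit, glmQLFTest), on all 18 libraries with 1 mean per group, two-sided, with Benjamini-Hochberg adjusted p-values over 16577 genes. Organ contrasts used an adjusted p below 0.05, and transplant contrasts also a log2 fold change above 1 in size. SE is the log2 fold change divided by the square root of F. Where all libraries of a group were at 0, the fold was set against 3 counts per library and is a lower bound. It covers counting error alone, since reads are not known to be separate molecules. edgeR's common biological coefficient of variation was 0.24. The fit was tested on simulated data with known changes. Named were all 33 members, genes of other lists with the highest mean after transplantation or near 0, sex-linked genes and the 8 genes of most similar pattern. Some items that this rule would name are not reported here. Nothing says that replicates came from separate cultures beyond the study's term biological replicates, so p-values measure the spread between these libraries. This spread was estimated per gene over all 18 libraries together and not within the 2 groups compared. Alternatives were DESeq2 1.42.0, its size factor method, library size alone, no filter, a mean of at least 10 counts, the replicate number as a block, fits of 2 groups, other limits on the fold change and each library left out. Sequences came from RefSeq tables of GRCm38.p6.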

Additional observations from a re-analysis of the deposited data

Results flagged for a closer look

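*Lrp2* moved in opposite directions in different organs. Every KFs library was below every KFc library, with a mean ratio of 0.425, while every HFs library was above every HFc library and every TFs library above every TFc library. The difference between the organs was not tested. Groups of 3 libraries are too small for a test of single outlying libraries, so none was made.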

How the results depend on the processing

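Of 188 recomputed counts of called genes (12 results), 161 stayed within 1.5 times the reported count. Of 464 recomputed log2 fold changes of single members, 366 kept their direction and call, 96 kept the direction alone and 2 reversed. DESeq2 called 5 members in KFs against TFs and 7 in KFc against TFc. With library size alone 0 were called in HFs against TFs (2 at an unadjusted p below 0.05 by edgeR). Fits of only the 2 groups called 1 in KFs against TFs, 0 in HFs against KFs (14 at an unadjusted p below 0.05), 6 in HFc against TFc and 8 in KFc against TFc. Counts with each library left out ran from 0 to 3 in HFs against TFs, 0 to 5 in KFs against TFs, 3 to 21 in HFs against KFs, 3 to 6 in HFc against KFc, 2 to 3 in HFc against TFc, 4 to 5 in KFc against TFc and 16 to 25 in KFs against KFc, where the 16 came without KFc replicate 1 and the choice of genes sets the count of 26 with all libraries. The log2 fold change in HFs against KFs reached 3.35 for *Slc13a3* and 3.28 for *Cyp2e1* without HFs replicate 3. Without both HFs replicate 2 and KFs replicate 3, added after seeing the data, the counts were 0 in HFs against TFs (7 at an unadjusted p below 0.05), 8 in KFs against TFs, 2 in HFs against KFs, 9 in HFc against KFc, 8 in KFc against TFc and 27 in KFs against KFc, and *Slc13a3* (-0.13) and *Cyp2e1* (-0.02) reversed in HFs against KFs. The causes were not tested. All member counts given here for KFs against KFc follow from how the genes were chosen and are no test. With all libraries, 14.7% of all genes were higher and 7.99% lower in KFs than KFc. For the other 36 proximal tubule genes, all counts stayed within 1.5 times the reported ones, with 13 to 20 called in KFs against KFc when a library was left out. Depth limits the genes near 3 counts, such as *Cyp4a14*.

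Replicate numbers are shared by the groups, but the labels give no common origin. Deviations of same-numbered libraries from their group means correlated by -0.189 to 0.122, and in no comparison was every pair above 0.1, so the numbers were not taken to pair the samples. With the replicate number as a block, 0 members were called in HFs against TFs (1 at an unadjusted p below 0.05) and 8 in HFs against KFs, and the other counts stayed within 1.5 times the reported ones.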
